A study of Mus musculus with 2 samples.

Results

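The 8 genes described here, Esm1, Apln, Pdgfb, Cxcr4, Mcam, Adm, Kcne3 and Plaur, are transcripts known from the tip cells of sprouting endothelium. They were chosen by name, out of 21951 gene features in the count matrix, and were read across heart and liver endothelial cells (ECs) of mouse pups. All groups carried Cdh5-CreERT2, a tamoxifen-inducible Cre expressed from an endothelial promoter, and were given 4-hydroxytamoxifen at 40 mg/kg on postnatal day 3 and collected 3 days later, on a C57BL/6 background. The groups were control, iSuRe-Cre and iSuRe-HadCre, in each of heart and liver. Both iSuRe alleles, once recombined, express the membrane reporter MbTomato. Cre stays on with iSuRe-Cre, a transgene outside Rosa26, and is transient with iSuRe-HadCre, which sits at Rosa26. The study shows the iSuRe groups as carrying floxed Notch1, which the labels do not mention, and the genotype of the control is not given in the sources used here. Cells were sorted as CD31+ MbTomato+, although the series description names sorting by presence or absence of Tomato. Antibody hashtags marked the 6 groups, which shared 1 10x Genomics library, so each group is 1 sample, the number of pups behind it was not found, and no test of a condition was possible.

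Sprouting vessels are led by tip cells, which extend filopodia towards VEGF, and are followed by stalk cells that divide and form the lumen. DLL4 on the tip cell activates NOTCH1 in its neighbours and restrains the tip fate there, and tip cells later contribute to arteries in which NOTCH and CXCR4 signalling are active. The 8 genes cover several roles. Esm1 (endocan), Apln (apelin), Pdgfb (the PDGF-B chain that recruits pericytes) and Adm (adrenomedullin) encode secreted proteins. Cxcr4 is the receptor for CXCL12 and Plaur the receptor for urokinase. Mcam (CD146) is an adhesion molecule of endothelium and pericytes, and Kcne3 is a regulatory subunit of voltage-gated potassium channels.

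The promoters of Adm and Kcne3 are shown because the levels of these genes were the most alike of any pair of members over the clusters described further on. Each run is the 250 bases before a RefSeq transcript start in build GRCm38.p6, on the plus strand of chromosome 7. Capitals mark ACGTG, 1 form of the core bound by hypoxia-inducible factors, and TGGGAA, the core bound by the NOTCH partner RBPJ. Each was searched on both strands, and other forms of either core were not searched.
Adm, chr7:110627407-110627656: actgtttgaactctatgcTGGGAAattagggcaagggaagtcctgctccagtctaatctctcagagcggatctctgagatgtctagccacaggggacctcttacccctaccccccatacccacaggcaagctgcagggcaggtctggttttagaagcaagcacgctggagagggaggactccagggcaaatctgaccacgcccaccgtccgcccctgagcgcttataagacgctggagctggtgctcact
Kcne3, upstream start, chr7:100176420-100176669: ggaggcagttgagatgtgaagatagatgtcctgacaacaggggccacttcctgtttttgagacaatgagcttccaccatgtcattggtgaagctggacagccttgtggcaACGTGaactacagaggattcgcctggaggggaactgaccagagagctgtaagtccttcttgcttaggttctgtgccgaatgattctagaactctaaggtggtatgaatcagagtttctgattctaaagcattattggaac
Kcne3, downstream start, chr7:100178433-100178682: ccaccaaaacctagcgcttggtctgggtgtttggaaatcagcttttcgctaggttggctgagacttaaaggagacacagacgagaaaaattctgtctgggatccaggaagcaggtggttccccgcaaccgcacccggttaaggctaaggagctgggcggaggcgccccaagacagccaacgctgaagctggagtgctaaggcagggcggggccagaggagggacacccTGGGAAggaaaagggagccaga
The Adm promoter held 1 TGGGAA and no ACGTG, the upstream Kcne3 promoter 1 ACGTG, and the downstream Kcne3 promoter 1 TGGGAA. No marked motif overlapped another. Neither motif occurred in the same window of Esm1, Apln, Cxcr4, Mcam or Plaur, and Pdgfb had no entry in the table. Of 32851 promoters of this length, 16.6% held ACGTG and 21.6% held TGGGAA on either strand, so these matches are common.

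Barcodes were kept with 2000 to 75000 UMIs, more than 500 genes, under 5% mitochondrial and under 5% haemoglobin transcripts, and a natural-log normalised Cdh5 level above 0.9. With at least 25 UMIs of 1 hashtag only (140 for that of iSuRe-Cre liver), 254 control, 435 iSuRe-Cre and 311 iSuRe-HadCre heart ECs and 54 control, 858 iSuRe-Cre and 76 iSuRe-HadCre liver ECs remained. These groups held between 624048 UMIs (control liver) and 9341120 (iSuRe-Cre liver), with medians of 7322 to 16379 UMIs per cell. Levels are given as CPM, the UMIs of a gene per 1000000 UMIs of its group, and all 95% intervals (exact Poisson for levels, exact conditional for ratios, exact binomial for shares) cover counting error only, not the spread between pups.

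The labels were checked against the targeted gene and against cell markers. Notch1 was at 138 CPM in control heart, 12.7 in iSuRe-Cre heart and 23.2 in heart with iSuRe-HadCre, and at 160 CPM, 21.4 and 30.8 in the same order in liver. The endothelial genes Cdh5 (738 to 1310 CPM) and Pecam1 (485 to 860 CPM) were present in all 6 groups. WPRE, a sequence of the reporter cassettes, was at 562 CPM in control heart and 396 in control liver, against 63.5 and 105 in the iSuRe-Cre groups and 1055 and 1070 in the iSuRe-HadCre groups. Free RNA, described below, held WPRE at 160 CPM, above both iSuRe-Cre groups. Tomato, the reporter sequence, was at 97.7 CPM in control heart and 78.5 in control liver. It was at 25.5 and 33.8 CPM in iSuRe-Cre heart and liver, near the 30.3 of free RNA, and at 269 and 192 with iSuRe-HadCre. The labels do not say which control allele carries WPRE. The study also removed cells with normalised WPRE at or below 0.5, a step left out here except as an alternative. It would keep 145 of 435 iSuRe-Cre and 292 of 311 iSuRe-HadCre heart ECs. In liver it would keep 379 of 858 iSuRe-Cre and 66 of 76 iSuRe-HadCre ECs. The liver groups differed in makeup. Of the 10 sinusoidal markers, Dnase1l3 was at 0 in control liver, and the summed level of the list was 522 CPM there, 1149 in iSuRe-HadCre liver and 4417 in iSuRe-Cre liver. A sinusoidal-like cluster held 403 of 858 iSuRe-Cre, 8 of 76 iSuRe-HadCre and 0 of 54 control liver ECs, whereas the capillary-like cluster that held most control heart ECs took 11 of the 54 control liver ECs. Each liver ratio below therefore sets groups of different EC types side by side.

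Free RNA, read from 24194 barcodes of 10 to 100 UMIs, was estimated from genes of the other organ to make up 1.96% of UMIs in iSuRe-HadCre heart, 2.58% in control heart, 14.6% in iSuRe-Cre heart, and 5.59% to 15% in the liver groups. The 8 hepatocyte genes summed to 655 CPM in iSuRe-Cre heart and 116 in control heart, with none at 0. The 8 erythroid genes, at 56890 CPM in free RNA, summed to 1167 CPM in iSuRe-Cre heart and 1487 in control heart after the haemoglobin limit. They were thus not higher in iSuRe-Cre heart, and the 14.6% depends on the genes used. Of 5 lymphatic genes with enough UMIs 4 were at least 2-fold higher in iSuRe-Cre than in control heart, beside 4.59% of all genes tested (2.47% were lower). The sum of all 6 lymphatic genes was 189.6 against 38.6 CPM (Mmrn1 at 0 in control), and Ccl21a was at 110.6 against 0.66 CPM. Of 6 mural genes 2 were higher and 2 lower, with Rgs5 at 83.3 against 8.91 CPM and Kcnj8 at 17.9 against 1.98, and of 4 keratinocyte genes 3 were higher (sum 58.1 against 30.4 CPM, none at 0). The part of these cells or their RNA in the iSuRe-Cre heart results was not tested. The 7 neutrophil genes summed to 3443 CPM in iSuRe-Cre liver, with none at 0, and to 596 in control liver, with Elane at 0.

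By CPM in heart, Adm was 3.41-fold higher with iSuRe-Cre than in control. Esm1 was lower with both alleles, Cxcr4 was lower with iSuRe-Cre, and Kcne3 was lower with iSuRe-HadCre. Of the 8 genes, all with enough UMIs (at least 50 over both groups), 1 was at least 2-fold higher and 2 were at least 2-fold lower in iSuRe-Cre heart than in control heart. Over all 10651 genes tested in that comparison 4.59% were at least 2-fold higher and 2.47% at least 2-fold lower. For iSuRe-HadCre against control heart, 0 members were at least 2-fold higher and 2 were lower, against 3.75% and 0.627% of 9572 genes. The median ratio of the members was 1.23 with iSuRe-Cre and 1.05 with iSuRe-HadCre, beside 0.961 and 1.09 over all genes tested.

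**Figure D1:**
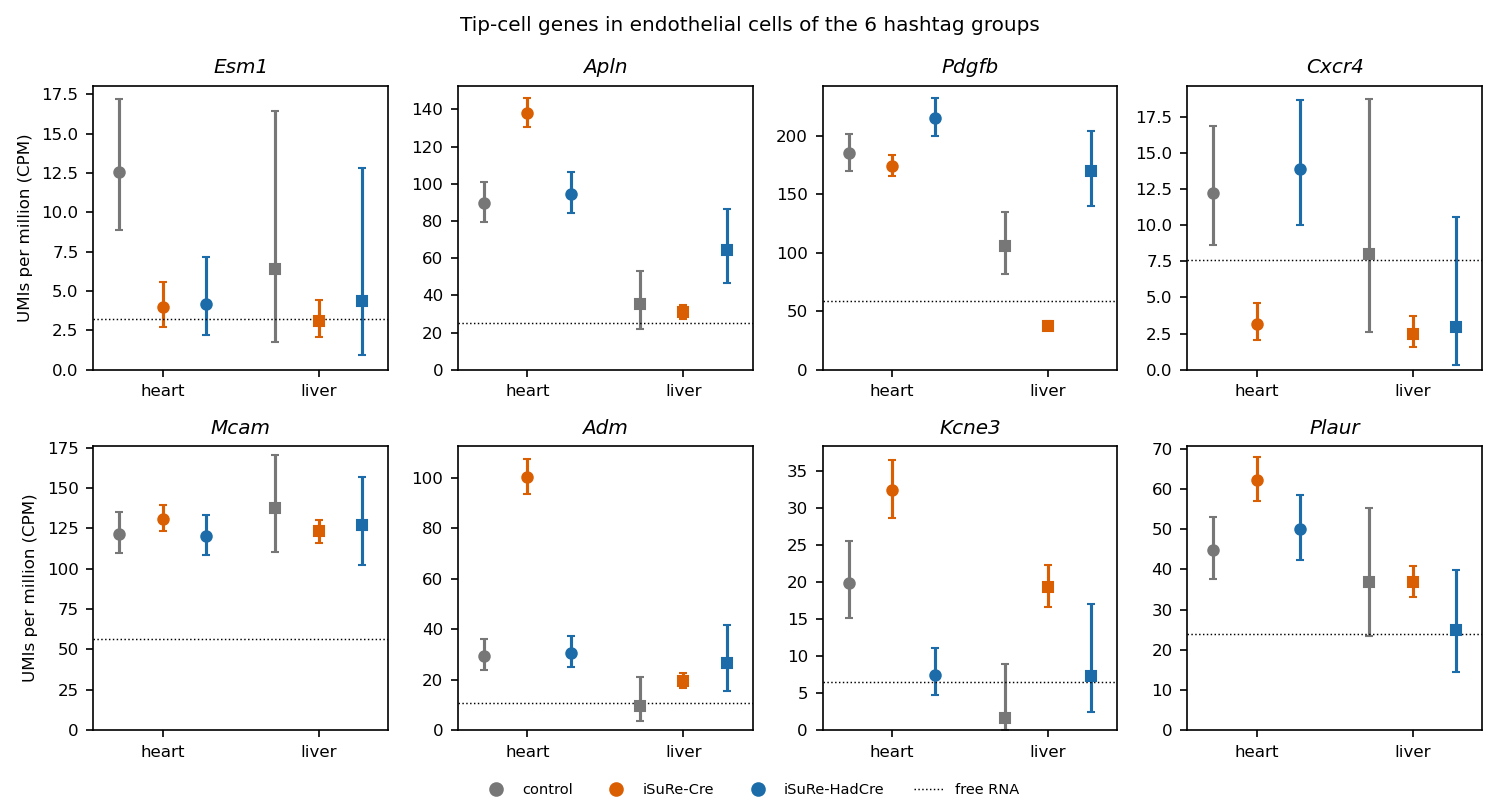
Level of each of the 8 tip-cell genes in CPM (y axis) in heart (circles) and liver (squares) ECs of the control, iSuRe-Cre and iSuRe-HadCre groups, with exact 95% Poisson intervals and the free RNA level as a dotted line. Adm stands at 100.2 CPM in iSuRe-Cre heart, above the other 5 groups, while Mcam lies between 120.5 and 138 CPM in all 6.

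Adm encodes adrenomedullin, a peptide that acts on endothelium through CALCRL with RAMP2 or RAMP3. It was at 29.4 CPM in control heart (95% interval 23.6 to 36.1), 100.2 in iSuRe-Cre heart (93.5 to 107) and 30.6 in heart with iSuRe-HadCre (24.8 to 37.4). Only the iSuRe-Cre interval lies apart from the other two. The ratio to control was 3.41 (2.74 to 4.29) with iSuRe-Cre and 1.04 (0.772 to 1.41) with iSuRe-HadCre, and iSuRe-HadCre stood at 0.306 (0.245 to 0.378) of iSuRe-Cre. An Adm UMI was detected in 46.4% of iSuRe-Cre heart ECs, 15% of control and 17% of iSuRe-HadCre heart ECs. After thinning every cell to 2000 UMIs these shares were 14.2%, 3.66% and 6.12%, and they were 1.91% in hepatocyte-like and 3.38% in erythroid-like cells without Cdh5, at median depths of 4167 and 2884 UMIs. The erythroid-like cells also held Pecam1, in 38.6% of cells and at 158 CPM. Having no Cdh5 UMI thus does not make them free of endothelial RNA, here or for the genes below.

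Apln, the ligand of the receptor APLNR, differed less. It was at 89.8 CPM in control heart, 138 in iSuRe-Cre heart and 94.8 in heart with iSuRe-HadCre. The iSuRe-Cre level was 1.54 times control (1.35 to 1.76), short of 2-fold, and that of iSuRe-HadCre was 1.06 times control (0.892 to 1.25). The share of cells with an Apln UMI after thinning was 12.4% in control, 20.1% in iSuRe-Cre and 15% in heart with iSuRe-HadCre, against 3.07% in hepatocyte-like and 5.53% in erythroid-like cells.

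Pdgfb lay in a narrow range in heart, at 185 CPM in control, 174 in iSuRe-Cre and 216 with iSuRe-HadCre. The iSuRe-Cre ratio of 0.942 (0.854 to 1.04) included 1, and the iSuRe-HadCre ratio was 1.16 (1.04 to 1.3). The thinned shares of cells with a UMI were 33.1%, 28.1% and 35.7% in the same order.

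Esm1 was rare. It gave 38 UMIs in control heart, or 12.5 CPM (8.88 to 17.2), 33 UMIs or 3.97 CPM (2.74 to 5.58) in iSuRe-Cre heart, and 13 UMIs or 4.19 CPM (2.23 to 7.16) in iSuRe-HadCre heart. The intervals of both alleles lie below that of control. The ratios to control were 0.317 (0.193 to 0.519) and 0.334 (0.163 to 0.641). In control heart 15 of 254 ECs had an Esm1 UMI, 1 cell held 17 of the 38 UMIs, and 5 cells held 73.7% of them. After thinning, 1.35% of control, 0.776% of iSuRe-Cre and 0.993% of iSuRe-HadCre heart ECs had an Esm1 UMI. Without the cell with the most Esm1 UMIs in each group, an alternative added after the values were seen, the ratios were 0.504 with iSuRe-Cre and 0.465 with iSuRe-HadCre, and neither counted as past 2-fold, the second from too few UMIs. Free RNA held Esm1 at 3.25 CPM.

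Cxcr4, which marks tip cells and arterial endothelium, separated the alleles. It was at 12.2 CPM in control heart (8.6 to 16.8), 3.13 in iSuRe-Cre heart (2.04 to 4.59) and 13.9 in heart with iSuRe-HadCre (10 to 18.7). The ratio to control was 0.256 (0.149 to 0.435) with iSuRe-Cre and 1.14 (0.714 to 1.81) with iSuRe-HadCre, and iSuRe-HadCre stood 4.43 times above iSuRe-Cre (2.66 to 7.5). Cells with a Cxcr4 UMI made up 2.92% of control, 0.629% of iSuRe-Cre and 3.19% of iSuRe-HadCre heart ECs after thinning, while hepatocyte-like cells gave 2.06% and erythroid-like cells 0.748%. The iSuRe-Cre share lies below both, and its 3.13 CPM lies between the 2.78 CPM of hepatocyte-like and the 3.97 of erythroid-like cells. Pure free RNA held 7.59 CPM, but hepatocyte genes put it at 14.6% of UMIs in iSuRe-Cre heart. Subtracting free RNA at these estimates, an alternative setting, left both ratios past 2-fold, but the estimate depends on the genes used. How much of the iSuRe-Cre level is background was not tested beyond that. The ratios of 0.256 and 4.43 may therefore only bound the difference in Cxcr4 and need not give its size.

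Plaur, the urokinase receptor, was at 44.9 CPM in control, 62.4 in iSuRe-Cre and 50 in heart with iSuRe-HadCre, with ratios to control of 1.39 (1.15 to 1.69) and 1.11 (0.878 to 1.41). Its ligand Plau, urokinase, was at 10.2 CPM in control and 21.2 in iSuRe-Cre heart, a ratio of 2.07 (1.41 to 3.14), and at 14.5 in heart with iSuRe-HadCre. Plaur was also at 200.5 CPM in neutrophil-like cells without Cdh5, while the summed neutrophil list was at 35 CPM in iSuRe-Cre heart and 167 in control heart.

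Kcne3, the channel subunit, lay on opposite sides of control with the alleles by CPM, but not by the thinned share of cells with a UMI. It was at 19.8 CPM in control heart (15.1 to 25.5), 32.4 in iSuRe-Cre heart (28.6 to 36.5) and 7.41 in heart with iSuRe-HadCre (4.7 to 11.1), with no overlap between the 3 intervals. The ratio to control was 1.64 (1.23 to 2.2) with iSuRe-Cre and 0.374 (0.221 to 0.615) with iSuRe-HadCre. Of the 60 Kcne3 UMIs in control heart, 58.3% lay in 5 cells. After thinning, 1.99% of control, 4.63% of iSuRe-Cre and 2.06% of iSuRe-HadCre heart ECs had a Kcne3 UMI. Free RNA held 6.5 CPM, near the iSuRe-HadCre level, but hepatocyte genes put free RNA at 1.96% of UMIs in that group. Among ECs with no UMI of the 10 proliferation genes (79 control and 50 iSuRe-Cre), the iSuRe-Cre ratio was 0.287, from too few UMIs to count as past 2-fold. It ranged from 1.36 to 2.75 over the other alternatives. The iSuRe-HadCre ratio lost its call in 5 of 18 alternatives. It was 0.898 as a mean over cells, 0.682 with HTODemux (the study's function for hashtag assignment) and 0.579 with a hashtag minimum of 10 UMIs. In the others, at 0.452 and 0.253, too few UMIs remained.

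Mcam, the adhesion molecule, was at 122, 131 and 121 CPM in control, iSuRe-Cre and iSuRe-HadCre heart, and both ratios to control, 1.08 (0.956 to 1.22) and 0.99 (0.855 to 1.15), included 1.

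**Figure D2:**
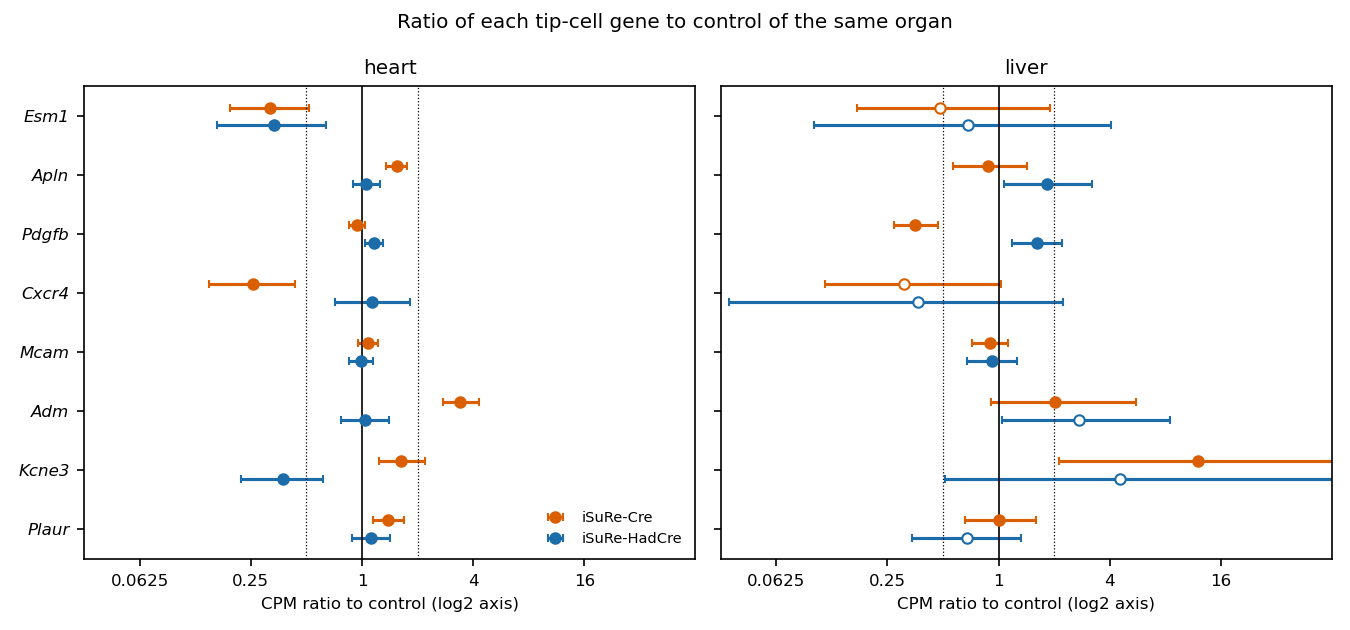
CPM ratio to control of the same organ (x axis, log2) for each of the 8 genes with iSuRe-Cre and iSuRe-HadCre in heart and liver, with exact conditional 95% intervals. Open points had fewer than 50 UMIs over both groups, dotted lines mark 2-fold, and the Kcne3 intervals in liver run beyond the axis. With iSuRe-Cre, Adm (3.41) and Cxcr4 (0.256) in heart and Pdgfb (0.354) and Kcne3 (12) in liver have whole intervals past 2-fold.

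Between the alleles in heart, 7 members could be compared, of which Cxcr4 was at least 2-fold higher and Adm and Kcne3 were at least 2-fold lower with iSuRe-HadCre than with iSuRe-Cre. Adm passed in all 18 alternatives, Kcne3 in 17 (0.88 among ECs with no proliferation UMI) and Cxcr4 in 13, its ratio staying between 2.84 and 6.97. Of 10786 genes 5.54% were at least 2-fold higher and 2.33% at least 2-fold lower in this comparison, which shares the iSuRe groups with those above. Kcne3 stood at 0.229 (0.143 to 0.351) and Apln at 0.686 (0.601 to 0.78) of the iSuRe-Cre level.

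In liver, Pdgfb was lower and Kcne3 and Adm were higher with iSuRe-Cre, on few control UMIs. Of 6 members with enough UMIs, 2 were at least 2-fold higher (Adm and Kcne3) and 1 was at least 2-fold lower (Pdgfb) in iSuRe-Cre than in control liver, beside 7.79% and 6.94% of 10854 genes. Pdgfb was at 106 CPM in control liver (81.8 to 135), 37.5 in iSuRe-Cre liver (33.6 to 41.6) and 170 in liver with iSuRe-HadCre (140 to 204), and the 3 intervals did not overlap. The ratio to control was 0.354 (0.272 to 0.468) with iSuRe-Cre and 1.61 (1.18 to 2.21) with iSuRe-HadCre. The iSuRe-Cre level lies below the 58.5 CPM of free RNA, which cardiomyocyte genes put at 11.7% of UMIs in iSuRe-Cre liver.

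Kcne3 had 1 UMI in control liver, 180 in iSuRe-Cre liver (19.3 CPM) and 5 in liver with iSuRe-HadCre (7.32 CPM). The ratio of iSuRe-Cre to control, 12 (2.13 to 478), rests on that UMI. Adm was at 9.62 CPM in control liver from 6 UMIs, 19.4 in iSuRe-Cre and 26.4 in liver with iSuRe-HadCre. Its ratio to control with iSuRe-Cre was 2.02 (0.908 to 5.56), which includes 1. It was 0.855 and 0.801 with hashtag minimums of 10 and 50 UMIs, and 1.01 with HTODemux. It passed 2-fold in 10 of 18 alternatives.

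Apln was at 35.3 CPM in control, 30.8 in iSuRe-Cre and 64.4 in liver with iSuRe-HadCre, and free RNA held 24.9. Mcam was again even, at 138, 123 and 127 CPM, and Plaur was at 36.9, 36.8 and 24.9 CPM in the same order. Esm1 gave 4, 29 and 3 UMIs and Cxcr4 5, 23 and 2 UMIs in control, iSuRe-Cre and iSuRe-HadCre liver, so that neither had a ratio interval that left 1 out.

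Of 3 members with enough UMIs in iSuRe-HadCre and control liver, 0 passed 2-fold in either direction, beside 1.64% higher and 2.39% lower of 5178 genes. Apln, at 1.83 (1.07 to 3.2), was the highest of the 3. Between the alleles in liver, Apln and Pdgfb were at least 2-fold higher and Kcne3 was at least 2-fold lower with iSuRe-HadCre, of 6 members, beside 5.22% and 7.09% of 10852 genes. Pdgfb had the largest of these ratios, 4.53 (3.64 to 5.61), and passed in all 18 alternatives tried. The Apln ratio, 2.09 (1.49 to 2.88), passed in 13 of 18 and was 1.92 with TMM factors, 1.97 with median-of-ratios factors, 1.96 with a hashtag minimum of 50 UMIs, 1.75 without the cell with the most UMIs and 1.22 with no Cdh5 criterion. The Kcne3 ratio, 0.38 (0.122 to 0.903), passed in 15 of 18 and was 0.851 with a hashtag minimum of 10 UMIs, 0.775 with HTODemux and 0.545 as a mean over cells. Between the control groups, 0 members were at least 2-fold higher and 3 (Apln, Adm and Kcne3) at least 2-fold lower in liver than in heart, of 6, beside 6.13% and 3.54% of 8171 genes. Apln in control liver was 0.393 (0.242 to 0.607) of its level in control heart.

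The clusters of all 14350 barcodes past the quality limits show which ECs hold the transcripts. Clusters were made without the 8 genes, and 43 held at least 50 barcodes. In 9 of them at least 90% of barcodes passed the Cdh5 limit. Pdgfb was highest in the arterial-like cluster (457 CPM, 427 to 488), and Esm1 in the capillary-like cluster (15.5 CPM, 13 to 18.3). Adm and Kcne3 were highest in cluster 23, an unnamed cluster led by the interferon-response genes Rsad2 and Cxcl9, at 119 and 46.7 CPM, and were at 104 and 42.7 CPM in cluster 25, an unnamed cluster led by Rbp7 with the cycling genes Prc1 and Mki67. Apln was highest in cluster 27, led by Scn7a and Emp2 and mostly without hashtag, at 274 CPM, followed by clusters 23 (199) and 25 (187).

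**Figure D3:**
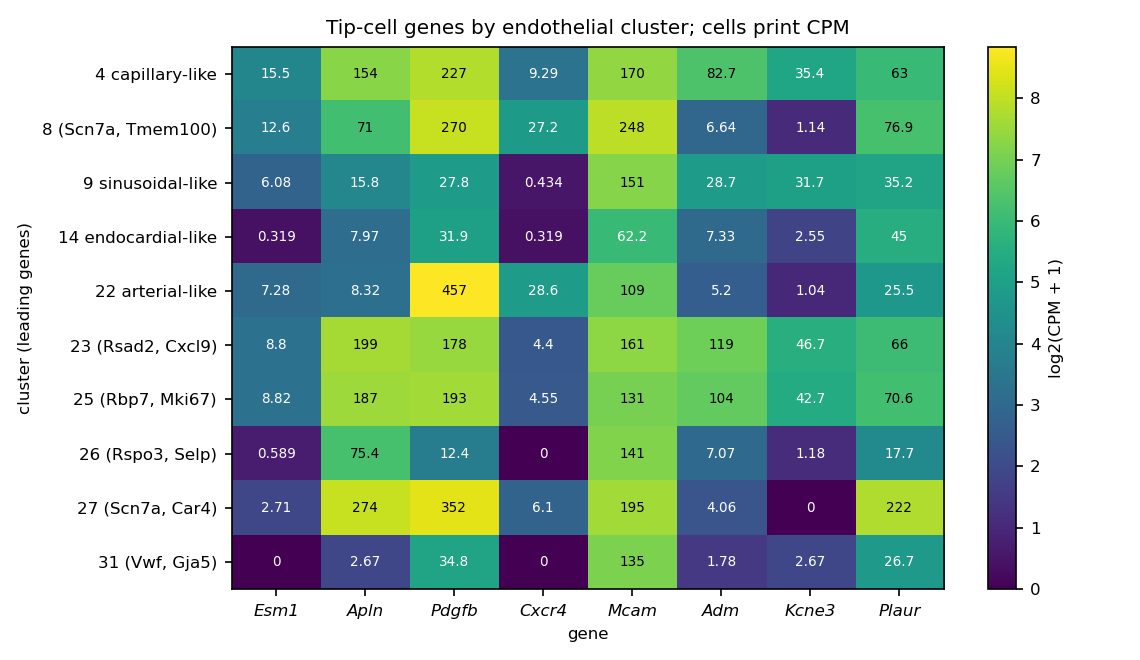
Mean level in CPM of each gene (x axis) in 10 endothelial clusters (y axis, number with name or leading genes), coloured by log2(CPM + 1) with the CPM printed. Adm and Kcne3 share their high clusters (4, 23 and 25), Cxcr4 and Pdgfb are high in cluster 22, and clusters 26 and 31 of liver hold few UMIs of Esm1 and Cxcr4.

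Cxcr4 was at 28.6 CPM in the arterial-like cluster and 27.2 in cluster 8, led by Scn7a and Tmem100, and at 0.434 in the sinusoidal-like cluster. It was higher still in a neutrophil-like cluster (38.3 CPM), as was Plaur (428 CPM), so these transcripts are not restricted to endothelium. Mcam varied least over the 10 clusters drawn, from 62.2 CPM in the endocardial-like to 248 in cluster 8. In cluster 31, led by Vwf and Gja5, Esm1 and Cxcr4 both had 0 UMIs.

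Over the 43 clusters, which share 1 library, Pearson's r of log2(CPM + 10) was highest for Adm with Kcne3 (0.849) and for Pdgfb with Mcam (0.802), and lowest for Cxcr4 with Adm (-0.03). Among 13877 genes, Kcne3, Tnfaip8l1 and Kcna5 were most like Adm (0.849 to 0.834), and Adm, Cdkl1 and Cxcl9 most like Kcne3 (0.849 to 0.76). Dok4, Aplnr and Arhgap18 were most like Apln (0.89 to 0.849), so the apelin receptor stood second. Vash1, Ppp1r2 and Col15a1 were most like Esm1 (0.787 to 0.764), and Rgs2, Pitpnm1 and Tmem71 most like Cxcr4 (0.792 to 0.719). Clic5, Cav2 and Pcdh1 were most like Pdgfb (0.945 to 0.934), Ets1, Cavin2 and Sh3tc2 most like Mcam (0.932 to 0.918), and Lyn, Rhog and Lcp1 most like Plaur (0.876 to 0.862).

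The heart groups differed in these clusters. The capillary-like cluster took 162 of 254 control, 110 of 435 iSuRe-Cre and 162 of 311 iSuRe-HadCre ECs. Cluster 23 took 5, 108 and 21, cluster 25 took 10, 73 and 21, and the arterial-like cluster took 40, 31 and 37 in the same order. The endocardial-like cluster, in which Esm1 and Cxcr4 were each at 0.319 CPM, took 8 control, 55 iSuRe-Cre and 11 iSuRe-HadCre heart ECs. Its part in the lower Esm1 and Cxcr4 of iSuRe-Cre heart was not tested on its own. In clusters with at least 90% of barcodes past Cdh5, which leave it and others out, Esm1 stayed at least 2-fold lower. The Cxcr4 ratio there was 0.243, from too few UMIs to count. The members were therefore compared within the capillary-like cluster too. There Adm was at 41 CPM in control, 145 in iSuRe-Cre and 45.2 in heart with iSuRe-HadCre, and the iSuRe-Cre ratio to control was 3.54 (2.7 to 4.69), close to that over all cells. Kcne3 was at 27.5, 42.3 and 12.2 CPM, with ratios of 1.54 (1.05 to 2.28) and 0.443 (0.225 to 0.818).

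**Figure D4:**
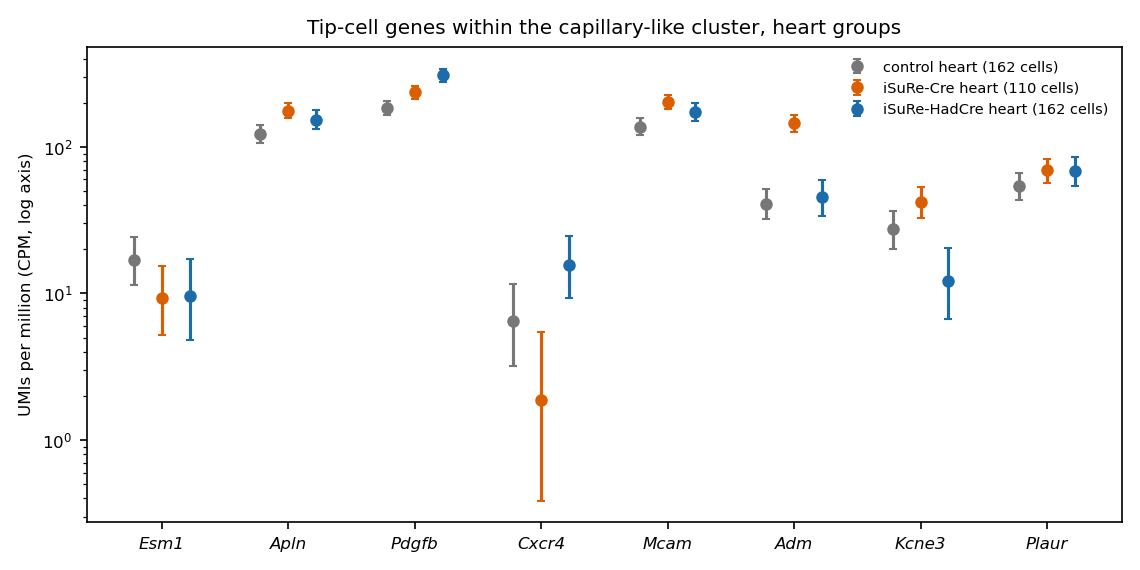
Level of each gene (x axis) in CPM (log y axis) within the capillary-like cluster for control, iSuRe-Cre and iSuRe-HadCre heart ECs, with exact 95% Poisson intervals. Adm is at 145 CPM in iSuRe-Cre against 41 and 45.2 CPM in the other groups, and Cxcr4 and Kcne3 differ between the alleles in opposite directions.

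Pdgfb and Mcam were higher than control with both alleles inside this cluster. Pdgfb was at 184 CPM in control, 235 in iSuRe-Cre and 308 with iSuRe-HadCre, with ratios of 1.28 (1.09 to 1.48) and 1.67 (1.43 to 1.95). Mcam had ratios of 1.47 (1.23 to 1.74) and 1.25 (1.03 to 1.52), Apln 1.44 (1.2 to 1.73) and 1.25 (1.02 to 1.54). Esm1 gave 29, 15 and 11 UMIs, and its ratios of 0.55 (0.274 to 1.06) and 0.564 (0.254 to 1.16) both included 1, unlike those over all cells. Cxcr4 gave 11 UMIs in control, 3 in iSuRe-Cre and 18 with iSuRe-HadCre, and iSuRe-HadCre exceeded iSuRe-Cre 8.39-fold (2.45 to 44.5).

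In the arterial-like cluster of heart, Cxcr4 was at 64 CPM in control from 18 UMIs in 40 cells, 4.36 in iSuRe-Cre from 2 UMIs in 31 cells and 33.9 with iSuRe-HadCre from 9 UMIs in 37 cells. The ratio to control was 0.0681 (0.00767 to 0.285) with iSuRe-Cre and 0.529 (0.209 to 1.24) with iSuRe-HadCre. Pdgfb stayed between 418 and 504 CPM there in all 3 groups. Adm and Kcne3 gave 0 UMIs in control arterial-like cells, which at 3 counts of 281168 UMIs could not be told from a low level.

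In cluster 25, Kcne3 was at 52.4 CPM in iSuRe-Cre (88 UMIs) and 4.06 in heart with iSuRe-HadCre (1 UMI), a ratio of 0.0774 (0.00194 to 0.443), and Adm at 148 and 69 CPM, a ratio of 0.465 (0.267 to 0.76). In cluster 23, the Adm ratio of iSuRe-HadCre to iSuRe-Cre was 0.808 (0.454 to 1.34), which includes 1. Apln differed little between the alleles in both clusters, with ratios of 1.01 (0.683 to 1.46) and 0.815 (0.574 to 1.13). Without clusters 23 and 25, an alternative added after the values were seen, the Adm ratio of iSuRe-Cre to control heart was 2.75.

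Liver groups had few cells in the capillary-like cluster, 11 in control, 14 in iSuRe-Cre and 15 with iSuRe-HadCre. Apln was at 99.2 CPM from 10 UMIs, 56.5 from 14 and 253 from 30 in these cells, and Pdgfb at 169, 137 and 244 CPM. Sinusoidal-like cells of iSuRe-Cre liver held Pdgfb at 20.8 and Apln at 13.1 CPM, and Kcne3 at 32 and Adm at 26.9 CPM. The lower Pdgfb of iSuRe-Cre liver over all cells thus stands beside a group in which 47% of ECs were sinusoidal-like, and its part in the result was not tested.

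The capillary-like cells with an Esm1 UMI were set against those without, as a description of which members share cells. Of 882 capillary-like ECs, hashtagged or not, 59 had an Esm1 UMI, with a median of 11150 UMIs per cell against 7606 in the rest. Kcne3 was at 93.6 CPM in cells with Esm1 and 29.7 in those without, a ratio of 3.15 (2.39 to 4.1). Cxcr4 was at 26.6 and 7.59 CPM, a ratio of 3.5 (2.02 to 5.83). Angpt2, another tip-cell gene and an antagonist of the TEK receptor, was at 48.1 and 20.6 CPM (2.33, 1.59 to 3.33). Over all these cells Apln and Adm had ratios of 1.41 (1.19 to 1.66) and 1.46 (1.16 to 1.82), while Pdgfb, Mcam and Plaur had intervals that included 1, but Apln and Pdgfb differed between sources. Apln was at 2.22 (1.54 to 3.14) in control heart, 1.75 (1.23 to 2.42) in iSuRe-Cre heart, 1.01 (0.745 to 1.35) without hashtag and 0.257 (0.0309 to 0.942) in iSuRe-HadCre heart, there from 2 UMIs. Pdgfb was at 1.44 (1.18 to 1.74) over the 3 heart groups, 2.14 (1.43 to 3.1) in iSuRe-HadCre heart and 0.83 (0.624 to 1.09) without hashtag. Kcne3 was higher in the Esm1 cells of control heart (4.26, 2.14 to 8.1), of iSuRe-Cre heart (2.76, 1.44 to 4.97) and of cells without hashtag (2.45, 1.57 to 3.71). The 7 such cells of iSuRe-HadCre heart gave 0 Kcne3 UMIs.

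**Figure D5:**
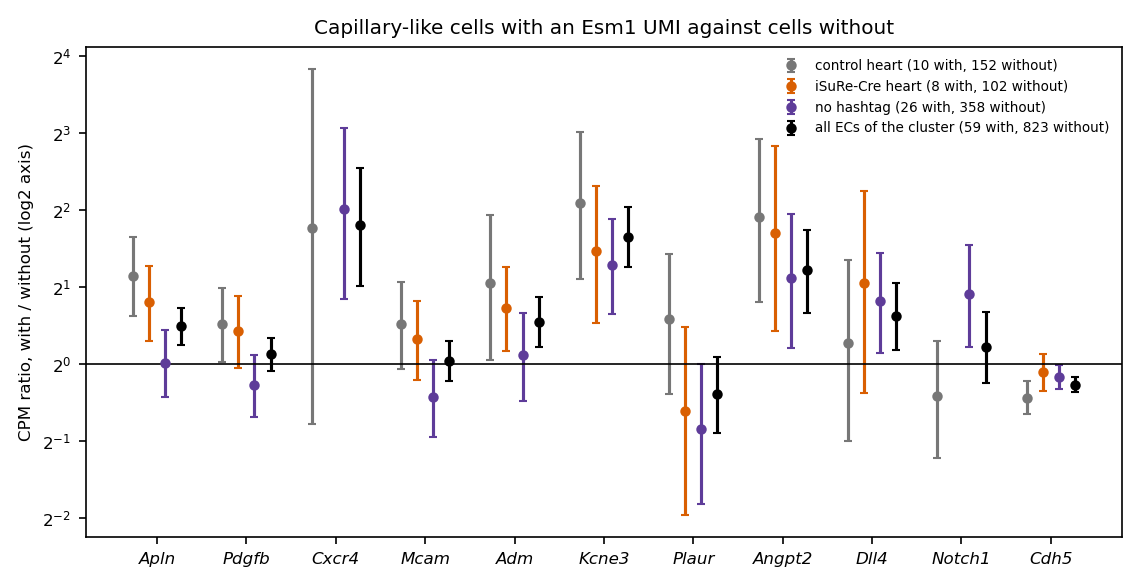
CPM ratio (log2 y axis) of cells with an Esm1 UMI to cells without, for 11 genes (x axis) within the capillary-like cluster, in control heart, iSuRe-Cre heart, cells without hashtag and all ECs of the cluster, with exact conditional 95% intervals. Ratios that had under 10 UMIs in all or a 0 on either side are not drawn. Over all ECs of the cluster Kcne3 (3.15), Cxcr4 (3.5) and Angpt2 (2.33) stand above 1 by their intervals, and Cdh5 (0.831) stands below.

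The cells were split by an Adm UMI in the same way. In control heart, 29 capillary-like cells with an Adm UMI held Apln at 216 CPM and 133 cells without held 83.1, a ratio of 2.6 (1.96 to 3.44), and Kcne3 had a ratio of 3.84 (2.06 to 7.35). In iSuRe-Cre heart, 56 cells with and 54 without Adm gave ratios of 1.7 (1.3 to 2.24) for Apln and 3.68 (1.87 to 8.09) for Kcne3. Plaur was higher in the Adm cells of both groups, at 2.49 (1.62 to 3.83) and 1.98 (1.27 to 3.17). Esm1 went opposite ways, at 0.275 (0.0533 to 0.898) in control from 3 UMIs against 26, of which 17 lay in 1 cell, and at 8.89 (1.35 to 376) in iSuRe-Cre heart from 14 against 1. Cells with an Adm UMI were the deeper ones, with medians of 17061 against 7356 UMIs in control heart.

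The partners of the members, their receptors and ligands, were read from a list of 10 genes. In iSuRe-Cre against control heart 1 of 10 was at least 2-fold higher (Plau) and 0 lower. In iSuRe-HadCre heart 0 passed in either direction. In liver, Plau was the 1 of 10 past 2-fold higher with iSuRe-Cre, and Cxcl12 and Ackr3 were the 2 past 2-fold lower, while Cxcl12 was the 1 of 6 higher with iSuRe-HadCre. Over all genes tested in heart, 4.59% were at least 2-fold higher and 2.47% lower with iSuRe-Cre, and 3.75% and 0.627% with iSuRe-HadCre. In liver these shares were 7.79% and 6.94% with iSuRe-Cre, and 1.64% and 2.39% with iSuRe-HadCre. Cxcl12, the ligand of CXCR4, was at 1283 CPM in control, 795 in iSuRe-Cre and 1806 in heart with iSuRe-HadCre, and at 609, 151 and 1662 CPM in liver. It was lowest with iSuRe-Cre in both organs, as Cxcr4 was in heart. Aplnr, the apelin receptor, was at 213 CPM in control, 123 in iSuRe-Cre and 196 in heart with iSuRe-HadCre, so with iSuRe-Cre the receptor was lower (0.58, 0.525 to 0.641) while its ligand Apln was higher. The adrenomedullin receptor genes Calcrl and Ramp2 had ratios of 0.911 (0.838 to 0.991) and 0.933 (0.885 to 0.983), and Ramp3 of 1.76 (1.34 to 2.34), in iSuRe-Cre against control heart.

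Other tip-cell genes, a list of 20, were mixed. In iSuRe-Cre against control heart 1 of 19 with enough UMIs was at least 2-fold higher (Kdr, the VEGF receptor VEGFR2) and 2 were lower (Dll4 and Unc5b), with a median ratio of 0.842. In iSuRe-HadCre heart 1 of 19 was higher, again Kdr, and 0 were lower, with a median of 1.14. Kdr was at 184 CPM in control, 480 in iSuRe-Cre and 832 in heart with iSuRe-HadCre. Dll4, the NOTCH ligand of tip cells, was at 44.6, 20.1 and 49 CPM in the same order. In liver, 2 of 20 were higher and 7 lower with iSuRe-Cre (Flt4, at a ratio of 4.42, was the highest, and Igfbp3, at 0.246, the lowest), and 0 of 17 passed in either direction with iSuRe-HadCre. Over all genes tested, 4.59% were higher and 2.47% lower with iSuRe-Cre in heart, and 7.79% and 6.94% in liver. With iSuRe-HadCre these were 3.75% and 0.627% in heart, and 1.64% and 2.39% in liver.

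Stalk and Notch-target genes were read from a list of 9 that includes Notch1. In heart 4 of 7 with enough UMIs were at least 2-fold lower and 0 higher with iSuRe-Cre (Hey1 0.24 and Notch1 0.0919 were the lowest), and 1 of 7, Notch1 itself, was lower with iSuRe-HadCre. In liver the counts were 4 of 7 and 1 of 7. Over all genes tested, 2.47% and 0.627% were at least 2-fold lower in heart with iSuRe-Cre and iSuRe-HadCre, and 6.94% and 2.39% in liver. Hey1, a Notch target, was at 50.2 CPM in control, 12 in iSuRe-Cre and 54.8 in heart with iSuRe-HadCre. Cxcr4, Dll4 and Hey1 were thus each lowest with iSuRe-Cre among the 3 heart groups, as was the sum of the 8 arterial genes, Hey1 among them, at 2046, 1133 and 2577 CPM. The arterial-like cluster held 15.75% of control, 7.13% of iSuRe-Cre and 11.9% of iSuRe-HadCre heart ECs. The part of that makeup in these levels was not tested. Cdh5 (1310, 975 and 1251 CPM) and Pecam1 (844, 585.5 and 860 CPM) were lowest with iSuRe-Cre too. The sum of the 10 endothelial genes was 5016, 4485 and 5576 CPM. Of these 10, 3 had a ratio above 1 in iSuRe-Cre against control heart, and the median was 0.754.

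Since Adm is known as a hypoxia-induced gene, 10 other such genes were read beside it. In iSuRe-Cre against control heart 1 of 9 with enough UMIs was at least 2-fold higher (Egln3, 2.6, 1.58 to 4.52), 0 were lower, and the median ratio was 1.29. Slc2a1, at 1.79 (1.23 to 2.67), was next. In iSuRe-HadCre heart 0 of 8 passed in either direction and the median was 1.01. Over all genes tested, 4.59% were higher and 2.47% lower with iSuRe-Cre, and 3.75% and 0.627% with iSuRe-HadCre. Ankrd37, lowest with iSuRe-HadCre (0.608, 0.501 to 0.735), was at 94.4, 122 and 57.4 CPM in control, iSuRe-Cre and iSuRe-HadCre heart. The Adm ratio of 3.41 was above that of all 9.

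Proliferation genes differed between the groups as well. All 10 had a ratio above 1 in iSuRe-Cre heart, 6 of them at least 2-fold (against 4.59% of all genes tested), with a median of 2.07. In iSuRe-HadCre heart 1 of the 10 proliferation genes passed 2-fold (against 3.75% of all genes tested), with a median of 1.51. Among ECs with no UMI of these genes (79 control, 50 iSuRe-Cre and 114 iSuRe-HadCre heart ECs), the Adm ratio in iSuRe-Cre heart was 3.2, from too few UMIs to count as past 2-fold. The part of the proliferation genes in the Adm result was not tested beyond that value.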

How the data were processed

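The authors aligned to GRCm38 extended by their transgenes, used Cell Ranger 7.1.0 to obtain UMI counts of genes and hashtags, and deposited these counts unfiltered and not normalized, in 1 matrix that both GEO samples share. The deposited feature names, types and cell barcodes are text labels of other kinds. From these counts, barcodes were filtered and assigned as stated in the report, and barcodes with several hashtags were left out in place of a doublet caller. A further 2 hashtag features had no group and were not used.

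UMIs were summed per group, a gene counted as called past 2-fold at 50 or more UMIs over both groups, and CPM, intervals and ratios came from scipy 1.17.1. Shares of cells thinned to 2000 UMIs are the expected share under draws without replacement. Leiden clusters (scanpy 1.11.5, leidenalg 0.10.2) used 2000 variable genes and 30 principal components without the 8 genes, Notch1 and the transgenes, and were named where at least 3 of 10 leading genes were markers of 1 type. Of 45 clusters, 26 stayed unnamed. The ratio step was checked on simulated data.

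The 8 genes and all lists were chosen with earlier results of these data known. Named genes were the 8 members, the 2 highest and 2 lowest ratios of each list, Cdh5 and Pecam1, the targeted gene Notch1, and the 3 most alike per member. Angpt2, Dll4, Calcrl, Ramp2 and other list genes given outside that rule were chosen after their values were seen. Alternatives used Seurat 5.3.0 (HTODemux) and edgeR 4.0.16 (TMM factors).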

Additional observations from a re-analysis of the deposited data

How the results depend on the processing

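With 1 sample per group no replicate could be left out. No paired analysis was possible because the result comes from no test. Over 18 alternatives, 3 of them added after seeing the data, the number of members past 2-fold moved by more than 1.5 times as follows, with smaller moves given after these. In iSuRe-Cre heart (3 against control) it was 1 with a hashtag minimum of 50 UMIs or with WPRE above 0.5 in the iSuRe groups or in every group, and 0 among cells with no UMI of the proliferation list. In iSuRe-HadCre heart (2) it was 1 with hashtag minimums of 10 or 50, HTODemux, WPRE in every group, the proliferation-free cells, clusters with at least 90% of barcodes past Cdh5, without clusters 23 and 25, and without the top cell of each gene, and 0 with the highest hashtag at least 3 times the next or with a mean over cells. In iSuRe-Cre liver (3) it was 1 in the proliferation-free cells. In iSuRe-HadCre liver (0) it was 1 with HTODemux, with an upper limit on genes per cell, with a mean over cells and without the top cell. Between the alleles in heart (3) it was 1 in the proliferation-free cells. The Adm ratio of iSuRe-Cre to control liver turned to 0.855 and 0.801 with hashtag minimums of 10 and 50. The cause was not tested. Fewer genes reach 50 UMIs when fewer cells are kept. The share of all genes past 2-fold was not computed for each of these alternatives, so the counts have no such share beside them.

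Smaller moves were these. In iSuRe-Cre heart the count was 4 with a hashtag minimum of 10 or a mean over cells (Kcne3 added), and 2 with the highest hashtag at least 3 times the next (Kcne3 added, Esm1 and Cxcr4 lost), in clusters with at least 90% of barcodes past Cdh5 (Cxcr4 lost) and without the top cell (Esm1 lost). In iSuRe-Cre liver it was 2, with Adm lost, with a hashtag minimum of 10, Cdh5 above 1.5, WPRE in the iSuRe groups, the 90% clusters and without clusters 23 and 25. Adm was also lost with a hashtag minimum of 50 and with HTODemux, where Apln or Cxcr4 was added and the count stayed at 3. Between the alleles in heart it was 2, with Cxcr4 lost, with a hashtag minimum of 50 and both WPRE settings, and with the highest hashtag at least 3 times the next Cxcr4 was lost and Apln added. Between the alleles in liver (3) it was 2 with hashtag minimums of 10 (Kcne3 lost) or 50 (Apln lost), HTODemux or a mean over cells (Kcne3 lost), and no Cdh5 criterion, TMM or median-of-ratios factors (Apln lost), and without the top cell Apln was lost and Plaur added.

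The Adm ratio of iSuRe-Cre to control heart ranged from 2.75 to 4.4 over the 18 alternatives and was called in 17. The Pdgfb ratio of iSuRe-Cre to control liver ranged from 0.144 to 0.458 and was called in 17. Cxcr4 in iSuRe-Cre heart ranged from 0.19 to 0.377 and Esm1 from 0.293 to 0.607, each called in 12, of 18 and 17 that gave a value. Kcne3 in iSuRe-Cre heart, not called as reported, ranged from 0.287 (from too few UMIs to be called) to 2.75 and was called in 3. Kcne3 in iSuRe-HadCre heart ranged from 0.253 to 0.898 and was called in 13. With the hashtag minimums used here, control liver, with 54 ECs and a limit of 4.81 CPM at 3 counts, limits what the liver ratios can show. HTODemux, the function the study used, gave 672 control, 766 iSuRe-Cre and 287 iSuRe-HadCre liver ECs. With it the Adm ratio of iSuRe-Cre to control liver was 1.01.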

Other observations

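A further 5586 ECs carried no hashtag above the minimum and belong to no group, and their organ and allele are not given. Esm1 was at 7.27 CPM in them (6.37 to 8.25), Apln at 72.3, Pdgfb at 123, Cxcr4 at 9.5, Mcam at 106, Adm at 30 (28.1 to 31.9), Kcne3 at 14.8 and Plaur at 51.2 CPM. Notch1 was at 43 CPM in these cells.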
